A study of Mus musculus with 4 samples.

Results

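The genes described here are 34 cell cycle genes, 16 of S phase and 18 of mitosis, read in CD45+ immune cells of the mouse liver. They were chosen by name out of the 32344 genes that the deposited matrices list, and each name matched 1 listed gene. The S phase members are Mcm2, Mcm3, Mcm4, Mcm5, Mcm6, Mcm7, Pcna, Tyms, Rrm1, Rrm2, Gins2, Cdc6, Cdt1, Uhrf1, Tipin and Clspn. The mitotic members are Mki67, Top2a, Ccna2, Ccnb1, Ccnb2, Cdk1, Birc5, Bub1, Aurka, Aurkb, Plk1, Cenpe, Cenpf, Kif11, Nusap1, Tpx2, Ube2c and Cdc20. Every member had counts, 147494 unique molecular identifiers (UMIs) for the S phase set and 20524 for the mitotic set.

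The study holds 4 single-cell libraries of sorted CD45+ liver cells, each pooled from 5 mice after 1 week of tamoxifen. WT replicates 1 and 2 carried no labelled deletion. GS replicate 1 had the genotype GS(+/delta)Hep, a heterozygous deletion of glutamine synthetase directed to hepatocytes, and URI replicate 1 had URI(+/delta)Hep, the same kind of deletion of URI. The deletions lie in hepatocytes, which the sort leaves out, so the targeted genes cannot check the labels here. How tamoxifen was given, which Cre driver was used and how mice were assigned to pools are not given in the sources used here, so the spread between libraries may be technical.

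In a dividing cell, E2F transcription factors switch on the genes that license and copy DNA: the MCM helicase, the clamp PCNA, the licensing factors CDC6 and CDT1, and the enzymes that make deoxynucleotides. Later in the cycle the B-MYB and FOXM1 complexes, acting through CHR elements, switch on genes of the spindle, the kinetochore and the anaphase-promoting complex. These genes are repressed by the DREAM complex in resting cells. Most lymphocytes and neutrophils of the liver are resting or past their last division. S phase transcripts can persist at low level in resting cells, while most mitotic transcripts are held close to zero outside late S phase, G2 and mitosis.

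Known cell cycle motifs are unevenly spread over the promoters of the 2 sets, and 6 promoters are printed because between them they carry the motifs of both groups. Among these 6 printed promoters, Cdk1 alone holds both an E2F and a CHR word. Windows from 250 bases before to 50 after the transcription start, from RefSeq on GRCm38.p6, were found for 28 of the 34 members. Mcm4, Gins2, Tipin, Ccna2, Aurkb and Tpx2 had no window. The sequences below are the 250 bases before the start on the gene's own strand, 5′ to 3′. Capitals mark matches on either strand to E2F words (TTTCCCGC, TTTCGCGC, TTTGCCGC or TTTGGCGC), to CHR words (TTTGAA or TTCGAA) and to the CCAAT box (CCAAT, read as ATTGG on the other strand). They are Mcm5 at chr8:75109259-75109508 (plus strand), Mcm6 at chr1:128359706-128359955 (minus), Top2a at chr11:99024190-99024439 (minus), Cdk1 at chr10:69352913-69353162 (minus), Kif11 at chr19:37376132-37376381 (plus) and Ube2c at chr2:164769679-164769928 (plus). All lie just upstream of the named gene.
Mcm5: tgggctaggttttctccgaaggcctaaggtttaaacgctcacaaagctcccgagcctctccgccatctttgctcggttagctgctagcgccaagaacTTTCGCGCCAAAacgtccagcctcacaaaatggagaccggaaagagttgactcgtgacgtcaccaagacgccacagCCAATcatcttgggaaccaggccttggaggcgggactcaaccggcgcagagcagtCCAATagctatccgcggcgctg
Mcm6: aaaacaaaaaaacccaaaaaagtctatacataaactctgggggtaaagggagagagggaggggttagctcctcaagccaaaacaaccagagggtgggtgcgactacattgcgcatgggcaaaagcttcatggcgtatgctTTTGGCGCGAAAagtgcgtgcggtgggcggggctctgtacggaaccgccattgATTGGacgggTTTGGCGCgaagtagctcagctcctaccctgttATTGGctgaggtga
Top2a: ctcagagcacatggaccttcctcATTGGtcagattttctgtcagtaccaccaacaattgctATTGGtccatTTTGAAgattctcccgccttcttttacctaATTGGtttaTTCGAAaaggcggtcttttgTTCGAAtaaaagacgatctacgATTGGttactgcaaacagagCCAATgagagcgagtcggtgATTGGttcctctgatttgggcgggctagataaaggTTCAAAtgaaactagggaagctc
Cdk1: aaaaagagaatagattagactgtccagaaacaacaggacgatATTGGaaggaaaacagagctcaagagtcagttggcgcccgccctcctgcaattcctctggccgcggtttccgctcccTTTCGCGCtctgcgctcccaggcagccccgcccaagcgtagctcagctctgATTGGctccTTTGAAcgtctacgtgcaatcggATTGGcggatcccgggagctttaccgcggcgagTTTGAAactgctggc
Kif11: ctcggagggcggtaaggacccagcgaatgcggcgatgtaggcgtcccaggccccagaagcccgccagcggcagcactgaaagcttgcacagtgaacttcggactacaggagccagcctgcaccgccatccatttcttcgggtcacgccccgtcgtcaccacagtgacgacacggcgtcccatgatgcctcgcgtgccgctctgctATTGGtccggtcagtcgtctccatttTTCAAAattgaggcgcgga
Ube2c: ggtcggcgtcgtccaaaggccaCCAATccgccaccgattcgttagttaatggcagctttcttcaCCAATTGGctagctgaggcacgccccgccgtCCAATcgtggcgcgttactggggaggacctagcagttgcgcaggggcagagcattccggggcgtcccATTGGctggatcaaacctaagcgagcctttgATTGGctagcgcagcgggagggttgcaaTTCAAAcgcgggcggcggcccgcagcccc

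An E2F word was present in the windows of 8 of 13 S phase members (61.5%) and 1 of 15 mitotic members (6.67%), against 2.60% of 27025 genes with a window (2.26% of the 32851 windows). The 8 were Mcm3, Mcm5, Mcm6, Mcm7, Cdc6, Cdt1, Uhrf1 and Clspn, where the Uhrf1 match lay at its second start, and the 1 mitotic member was Cdk1. A CHR word was present in 2 of 13 S phase members, Mcm2 and Mcm7, and in 11 of 15 mitotic members (73.3%), against 21.7% of genes (19.2% of windows). Of those 11, 10 had a CHR word within 40 bases of the start, and the exception was Mki67 at -98. The match nearest to the start lay upstream at -15 in Cdk1, -18 in Cdc20, -19 in Kif11, -23 in Top2a and -29 in Ube2c. It lay downstream at 3 in Cenpf, 5 in Ccnb2, 15 in Bub1, 31 in Plk1 and 33 in Aurka. The share of all genes with a CHR word within 40 bases was not counted. CCAAT was common to both sets, with 10 of 13 and 13 of 15, against 41.1% of genes (37.4% of windows). Mcm5 carried 2 overlapping E2F matches, at -153 and -149, and Mcm6 had overlapping matches at -110 and -106 with a separate one at -47. A match is a string of letters and was not tested for binding, and no test was made on these shares.

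**Figure D1:**
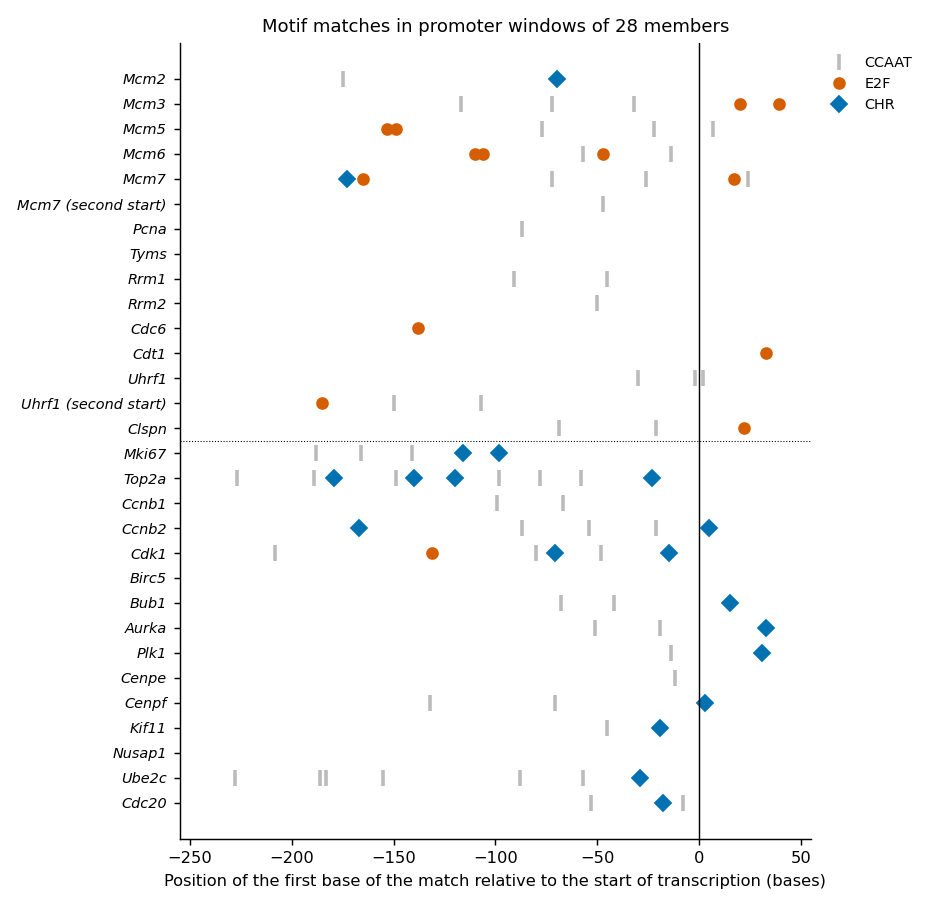
Position of motif matches relative to the transcription start (bases, horizontal axis) in the windows of 28 members, with S phase and mitotic members on separate rows; each mark is the first base of an E2F, CHR or CCAAT match. E2F marks lie almost wholly among S phase members (8 of 13 against 1 of 15). A CHR mark lies within 40 bases of the start in 10 of 15 mitotic members, a share not counted over all genes.

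The libraries held 24041049 to 51920505 UMIs. Barcodes with at least 500 UMIs were taken as cells, 7846 in GS replicate 1, 9096 in URI replicate 1, 8483 in WT replicate 1 and 7453 in WT replicate 2, in all 32878. Median depth was 4448, 4973, 3763 and 2659 UMIs in the same order, and this order of libraries is kept in every series of 4 values. WT replicate 2 was the shallowest library. No full barcode was shared between libraries, while 1480 to 2076 cells per pair shared the first 16 bases, which cells of multiplexed libraries in 1 droplet do. Cells were assigned to lineages by raw marker UMIs, with at least 1 UMI of the gate's marker and limits on other markers. Every gate had 0 UMIs of Cd3e, Ncr1 and Cd79a other than its own. Lymphocyte gates also had 0 of Csf3r and Csf1r, and the Csf1r gate 0 of Csf3r. Cd4 and Cd8a were limited in the T cell gates only. Gates other than Camp-high allowed fewer than 5 UMIs of Camp. The Csf3r gate set no limit on Csf1r, and the Camp-high gate none on Csf3r or Csf1r. The gates were CD4 T (Cd3e and Cd4, 4384 cells), CD8 T (Cd3e and Cd8a, 4011), CD4-CD8- T (Cd3e alone, 2778), NK/ILC (Ncr1, 2768), B (Cd79a, 6448), Csf3r myeloid (3676), Csf1r myeloid (136) and a Camp-high myeloid gate with at least 5 UMIs of Camp, a neutrophil granule gene (143). The remaining 8534 cells (26.0%) carried markers of more than 1 gate, markers that set no gate alone, or no marker. Levels are given as CPM, the UMIs of a gene or list per 1000000 UMIs of the gate's cells in a library. Fixed marker lists fitted the B and Csf3r gates, with a summed B list of 5049 to 7165 CPM and a neutrophil list of 59755 to 89861 CPM. The NK/ILC gate also held a T cell list of 1362 to 1948 CPM, against 4345 to 8449 CPM in the T cell gates. With the 4 libraries together most of it was Trbc1 (715 CPM) and Lck (714 CPM). Cd3d and Trac were at 21.7 and 25.2 CPM there, against 920 and 2042 CPM in CD4 T cells. The CD4-CD8- T gate is named by its counts alone. Cd40lg had a UMI in 27.9% of its cells, against 3.19% of CD8 T cells. Cd8b1 had a UMI in 18.8% of its cells, against 11.6% of CD4 T cells. The gate may therefore hold CD4 or CD8 T cells without a UMI of Cd4 or Cd8a, which was not tested. Erythroid genes were at 0 to 2.76 CPM across the gates.

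S phase transcripts were widespread and mitotic transcripts were rare. A UMI of at least 1 S phase member was found in 84.1% of cells and a UMI of at least 1 mitotic member in 17.2%. Pcna, the sliding clamp of DNA polymerase, had a UMI in 60.6% of cells, Cdt1, which loads the helicase, in 33.2%, and Mcm6, a helicase subunit, in 24.7%. Among the mitotic members the highest shares were 3.31% for Aurka, a centrosome kinase, and 3.13% for Cdc20, an activator of the anaphase-promoting complex, and the lowest was 0.0943% for Ccnb1, cyclin B1, with 33 UMIs in all. These shares depend on probe efficiency, so they are not ordered as levels between genes.

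Summed over all cells, the S phase set reached 1005, 1020, 977 and 1049 CPM, a range narrower than that of the mitotic set, with 134, 143, 187 and 71.4 CPM. WT replicate 1 was highest and WT replicate 2 lowest for the mitotic set, so the WT libraries enclosed both deletion libraries. Free RNA, measured in barcodes under 100 UMIs, held 968 to 1077 CPM of the S phase set and 114 to 188 CPM of the mitotic set. Those levels are near those of cells, so a single UMI in a cell does not show that the cell expressed the gene.

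The lineages differed in both sets. In CD4 T cells the S phase set was at 1148, 1160, 1162 and 1178 CPM and in CD8 T cells at 1230, 1132, 1186 and 1276 CPM. Csf3r myeloid cells, mostly mature neutrophils by their markers, held 241, 444, 259 and 427 CPM, below every lymphocyte gate in every library. The mitotic set was at 190, 232, 408 and 88.7 CPM in CD4 T cells, at 106, 77.7, 77.5 and 54.7 CPM in B cells and at 25.1, 106, 36.7 and 34.7 CPM in Csf3r myeloid cells. The mitotic level differed more between libraries of 1 gate, and the CD4-CD8- T gate ranged from 78.3 CPM in WT replicate 2 to 331 CPM in URI replicate 1.

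**Figure D2:**
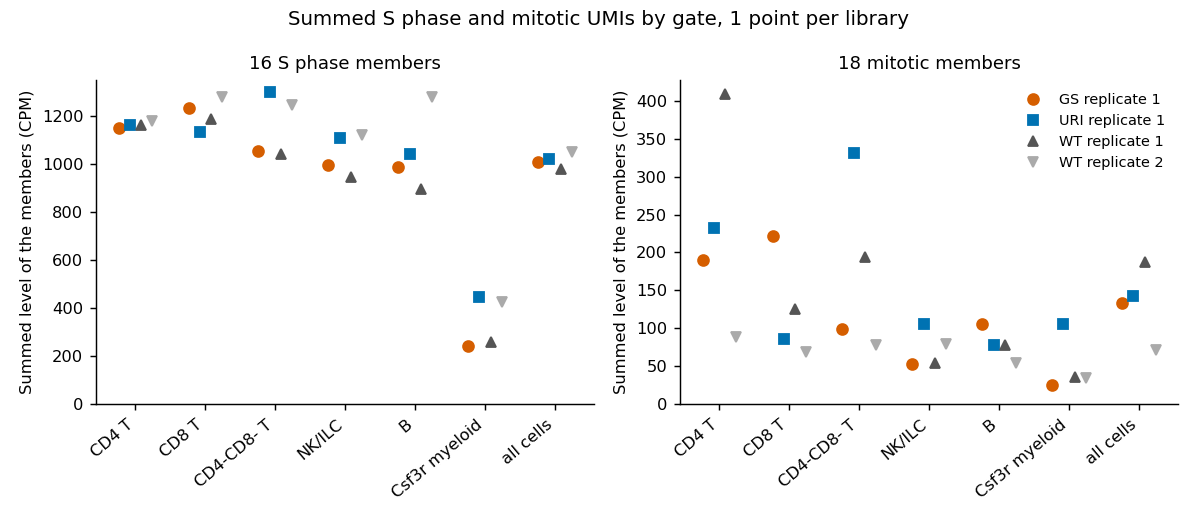
Summed level of the 16 S phase members (left) and the 18 mitotic members (right) in CPM for each gate, 1 point per library. S phase levels of lymphocyte gates lie close together (894 to 1296 CPM) and above Csf3r myeloid cells (241 to 444 CPM), while mitotic levels spread between libraries within a gate, as in CD4 T cells (88.7 to 408 CPM).

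Each gate was set against the mean of the other 5 tested gates, with the 6 gates that had at least 50 cells in each library. UMIs were summed per gate and library and tested with edgeR's quasi-likelihood test, with library as a block and Benjamini-Hochberg adjustment over 11043 genes at 0.05. All 16 S phase members and 16 of 18 mitotic members passed the filter on low counts; Ccnb1 and Bub1 did not. Values below are log2 differences of a gate from the mean of the others unless given in CPM.

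CD4 T cells had the broadest mitotic signal. In this gate 14 of 16 tested mitotic members were higher and 0 lower, and 11 of 16 S phase members were higher and 1 lower, where 31.4% of all genes were higher and 28.1% lower. The median difference was 1.20 for the mitotic members and 0.35 for the S phase members, against 0.02 for all genes. The lower call was Cdt1 (-0.15, adjusted p = 0.041); it was at 0.08 without scaling factors and was not called without any 1 library, without the filter, with at least 1000 UMIs per cell or with gates at 2 UMIs. Mki67, the proliferation antigen that coats mitotic chromosomes, was at 41.3, 44.4, 101 and 8.10 CPM in CD4 T cells and at 14.5, 4.86, 14.1 and 2.24 CPM in B cells, and rose by 1.60 (SE 0.355, adjusted p = 0.00046). CD4 T cells exceeded B cells within each library, although the ranges over libraries overlapped. Top2a, the topoisomerase that untangles sister chromatids, was at 29.5, 31.7, 62.4 and 15.3 CPM in CD4 T cells (1.42, SE 0.301, adjusted p = 0.000291). Ube2c, the ubiquitin carrier of the anaphase-promoting complex, was at 11.5, 17.1, 23.9 and 4.05 CPM (1.75, SE 0.329, adjusted p = 7.51e-05), and Kif11, a motor that separates the spindle poles, at 10.0, 12.2, 26.5 and 5.40 CPM (1.64, SE 0.388, adjusted p = 0.000887). In all 4 of these genes WT replicate 1 was the highest library and WT replicate 2 the lowest.

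Other mitotic members higher in CD4 T cells were Cdk1, the kinase that drives entry into mitosis (1.32, adjusted p = 0.00124), the cyclins Ccna2 (1.33, adjusted p = 0.0191) and Ccnb2 (1.00), the passenger protein gene Birc5 (1.12, adjusted p = 0.0245), the polo kinase Plk1 (0.63, adjusted p = 0.0209) and the spindle assembly factor Tpx2 (1.13, adjusted p = 0.0155). The members that missed the threshold included Aurka (0.09, adjusted p = 0.638). Without WT replicate 1 the count of higher mitotic members in CD4 T cells was 5 and of S phase members 6, and DESeq2 called 9 mitotic members higher. The calls of this gate therefore rest in part on WT replicate 1, the library with the highest mitotic level.

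In CD8 T cells the calls were mostly of S phase members. There 12 S phase members were higher and 1 lower, and 1 mitotic member was higher and 0 lower, where 32.8% of all genes were higher and 31.3% lower. Mcm6 was at 126, 127, 153 and 94.3 CPM in CD8 T cells and at 52.0, 62.1, 53.0 and 51.7 CPM in B cells, so these gates did not overlap (CD8 T 0.71, SE 0.0879, adjusted p = 1.88e-07; B -0.61, SE 0.1, adjusted p = 9.14e-06). The helicase subunits Mcm3 (0.64, adjusted p = 4.42e-05) and Mcm5 (0.56, adjusted p = 8.04e-05), the replisome protein Tipin (0.45, adjusted p = 0.000295) and Rrm1, a subunit of ribonucleotide reductase (0.31, adjusted p = 0.00701), were also higher. The lower S phase member was Pcna (-0.14, adjusted p = 0.0463), which was at 0.09 without scaling factors. The 1 mitotic member called was Cdc20, at 18.5, 11.7, 12.1 and 12.6 CPM (0.56, adjusted p = 0.00548). The mitotic count in CD8 T cells was 5 higher without URI replicate 1, and 0 higher with 3 lower without GS replicate 1. The CD8 T level of the mitotic set was 221 CPM in GS replicate 1 and 86.4, 126 and 68.4 CPM in the other libraries.

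In CD4-CD8- T cells 8 S phase members were higher and 0 lower, and 6 mitotic members were higher and 1 lower, where 27.2% of all genes were higher and 23.4% lower. Mki67 was at 14.7, 77.5, 41.1 and 8.60 CPM there (1.10, adjusted p = 0.03), highest in URI replicate 1. The member that was lower was Aurka (-0.59), a call lost without scaling factors (-0.36). The mitotic count fell to 1 without URI replicate 1 and to 1 without WT replicate 1, and was 10 without GS replicate 1. DESeq2 called 3 higher, and the S phase count was 5 without either WT library.

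Calls in NK/ILC cells were mostly of S phase members. There 7 S phase members were higher and 1 lower, and 0 mitotic members were higher and 3 lower, where 30.1% of all genes were higher and 27.8% lower. The share of mitotic members called lower was below that of all genes, so it is no result about the set. Mcm6 was at 111, 152, 134 and 96.0 CPM (0.82, SE 0.0951, adjusted p = 8.01e-08), and the lower S phase member was Gins2, part of the active helicase (-0.96, adjusted p = 0.0116). Ccnb2, cyclin B2, was at 1.07, 5.81, 3.11 and 2.88 CPM (-1.64, SE 0.418, adjusted p = 0.00177), and Aurkb (-1.37) and Aurka (-0.65) were the other lower members. The S phase count was 3 without GS replicate 1, 2 without WT replicate 2 and 4 by DESeq2.

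B cells differed in single members more than in the sets. In this gate 3 S phase members were higher and 4 lower, and 1 mitotic member was higher and 4 lower, where 36.3% of all genes were higher and 33.9% lower. All 4 counts were, as shares of the members tested, below those of all genes. Cdt1 stood highest in B cells, at 209, 228, 182 and 349 CPM, against 94.2, 108, 86.4 and 157 CPM in CD4 T cells and 132, 146, 114 and 228 CPM in CD8 T cells (B 1.32, SE 0.056, adjusted p = 2.02e-16). Within each library B cells were above both T cell gates, and WT replicate 2 was the highest library in all 3. Rrm1 (0.35, adjusted p = 0.00265) and Mcm7 (0.26, adjusted p = 0.0293) were also higher in B cells, the latter not by DESeq2 (adjusted p = 0.0824). Mcm6, Mcm4 (51.8, 54.5, 55.6 and 44.0 CPM, -0.42, adjusted p = 8.7e-06), Tyms, which makes thymidylate (3.64, 2.89, 3.82 and 2.98 CPM), and the checkpoint adaptor Clspn (-1.36, adjusted p = 0.0464) were lower, where the Clspn call was lost without scaling factors (adjusted p = 0.0625). Aurkb, the kinase that corrects spindle attachments, was the 1 mitotic member higher in B cells, at 6.14, 7.61, 4.02 and 3.23 CPM (1.06, SE 0.363, adjusted p = 0.0126), while Mki67 was lower (-1.22, adjusted p = 0.0308; by DESeq2 adjusted p = 0.102). The count of lower mitotic members was 0 without URI replicate 1, 0 without WT replicate 2 and 1 without WT replicate 1.

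Csf3r myeloid cells were low in the S phase set. There 0 S phase members were higher and 12 lower, and 1 mitotic member was higher and 3 lower, where 38.6% of all genes were higher and 44.5% lower. Mcm2 was at 4.13, 17.6, 11.5 and 4.82 CPM in Csf3r myeloid cells and at 101, 91.1, 89.4 and 63.0 CPM in CD4 T cells, without overlap (Csf3r -2.08, SE 0.175, adjusted p = 7.66e-11). Cdt1 was at 16.5, 34.9, 14.1 and 28.2 CPM (-1.73, adjusted p = 5.55e-15), and Rrm1 (-1.66, adjusted p = 5.61e-10), Mcm5 (-1.70, adjusted p = 4.46e-09) and Tipin (-1.38, adjusted p = 1.32e-08) were also lower. The value of Pcna depended on the scaling. It was at 167, 218, 151 and 309 CPM, a mean of 211 CPM against 382 CPM in the other gates, with a scaled difference of 0.01 (adjusted p = 0.869) and a difference of -0.87 without scaling factors (adjusted p = 2.63e-11). Aurka was the only mitotic member called higher, at 11.4, 17.6, 14.1 and 14.5 CPM (1.59, SE 0.154, adjusted p = 1.06e-09), and at 0.71 without scaling factors, while Cdk1 (-2.18, adjusted p = 0.00383), Top2a (-1.70) and Cdc20 (-1.15, adjusted p = 0.000359) were lower. Without URI replicate 1 the count of lower mitotic members was 10.

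**Figure D3:**
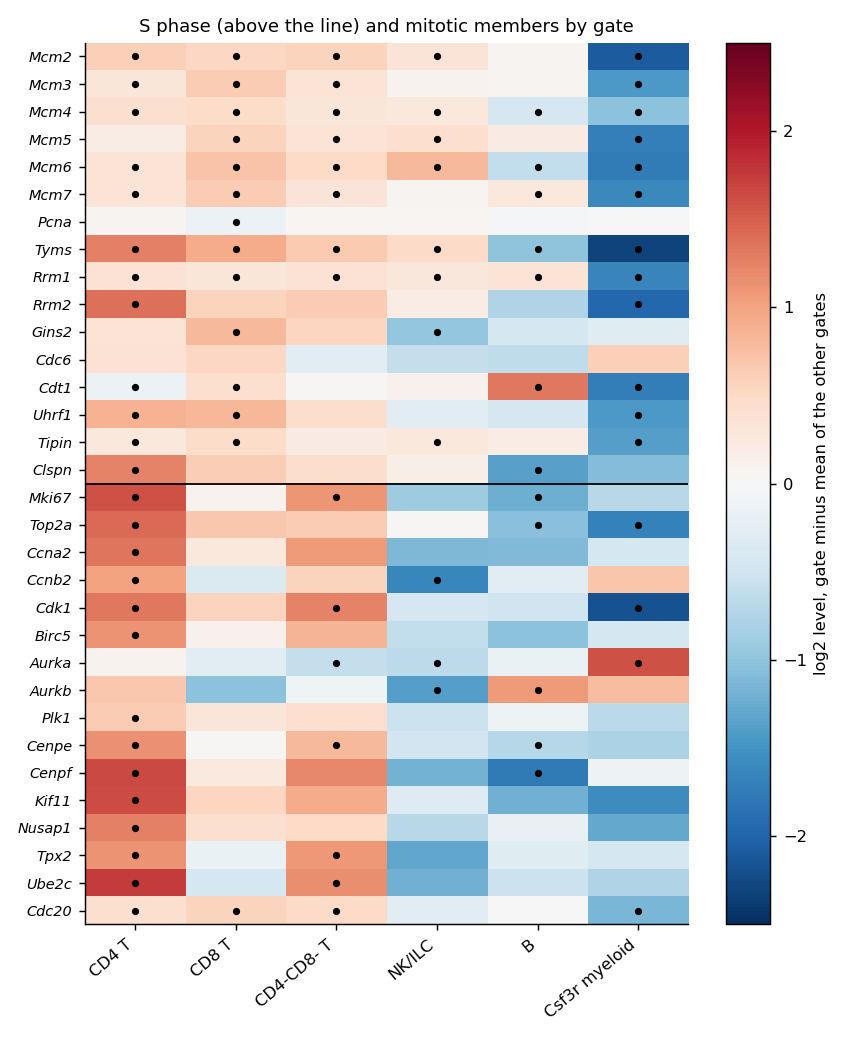
Heat map of log2 differences of each gate (columns) from the mean of the other tested gates for the tested members (rows, S phase above the line, mitotic below); dots mark adjusted p below 0.05 by edgeR. The Csf3r column is low for most S phase members (12 lower), the CD4 T column is high for mitotic members (14 higher), and Aurka in Csf3r myeloid cells (1.59) and Cdt1 in B cells (1.32) stand against their sets.

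The direction of the set medians was the same without scaling factors, but the calls over all genes shifted. Without them the median of all genes was 0.26 in CD4 T, 0.23 in CD8 T, 0.24 in CD4-CD8- T, 0.08 in NK/ILC, 0.11 in B and -1.01 in Csf3r myeloid cells. In CD4 T cells 6134 genes were then higher and 1741 lower, against 3471 and 3106 with scaling. The same splits were 5701 and 2164 against 3621 and 3458 in CD8 T cells, and 5633 and 1202 against 3005 and 2585 in CD4-CD8- T cells. In Csf3r myeloid cells they were 2296 and 7704 against 4263 and 4909. Differences are therefore read relative to the scaled libraries.

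The balance between the sets was summarised as S phase UMIs per mitotic UMI. CD4 T cells had 6.04, 5.00, 2.85 and 13.3, and B cells had 9.32, 13.4, 11.5 and 23.3. The CD4 T ratio was below the mean of the other gates in 4 of 4 libraries, by -0.85 on the log2 scale (SD 0.604, n = 4, exact sign-flip permutation test, 2-sided p = 0.13), and the B ratio was above it in 4 of 4 (0.61, exact permutation p = 0.13). That is the smallest p that 4 libraries allow, 2 of 16 sign patterns, and over the 6 gates the adjusted values were 0.375 to 0.625. WT replicate 2 had the highest ratio in CD4 T, CD8 T, CD4-CD8- T, B and Csf3r myeloid cells.

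Genes outside the 34 were read from lists of G1 regulators, other replication genes and other mitotic genes. In CD4 T cells 16 of 40 other replication genes were higher and 3 lower, 23 of 47 other mitotic genes were higher and 3 lower, and 11 of 30 G1 regulators were higher and 3 lower. Of all genes 31.4% were higher and 28.1% lower, so only the share of mitotic genes was well above the background. Ccnd2, cyclin D2, which drives exit from G1, was at 834, 708, 825 and 672 CPM in CD4 T cells (1.14, adjusted p = 2.02e-10). Smc4, a condensin subunit (0.64, adjusted p = 1.82e-07), Ndc80, an outer kinetochore gene (0.84), and Dut, which clears deoxyuridine triphosphate (0.94), were higher. Rfc2, a clamp loader subunit (-0.59, adjusted p = 1.24e-09), Cks2 (-0.59) and the cytokinesis gene Racgap1 (-0.76) were lower. In Csf3r myeloid cells 4 of 40 other replication genes were higher and 32 lower, and 5 of 47 other mitotic genes were higher and 18 lower, where 38.6% of all genes were higher and 44.5% lower.

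The mitotic transcripts lay in few cells. A UMI of at least 4 of the 18 mitotic members was found in 51, 71, 74 and 15 cells, in all 211 (0.642%). By library this was 0.650% (95% exact Clopper-Pearson interval 0.484 to 0.854), 0.781% (0.610 to 0.984), 0.872% (0.686 to 1.09) and 0.201% (0.113 to 0.332); intervals cover counting error only. WT replicate 2, the shallowest library, was lowest and its interval did not overlap the others. After thinning every cell to 1000 UMIs, the cells at or past this number were 16, 25, 32 and 4 (0.225%, 0.301%, 0.416% and 0.0595%). The number 4 was chosen along a continuous count: 116 cells had 3 mitotic members, 44 had 4 and 98 had at least 10. Of the remaining cells 83.3% had 0.

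Those 211 cells held 63.4% of all mitotic UMIs and 8.89% of all S phase UMIs, with 2.07% of all UMIs. Per library the mitotic share was 60.1%, 62.7%, 76.8% and 20.7%. Their median depth was 12211, 15908, 12685 and 5430 UMIs, against 4431, 4951, 3746 and 2658.5 in the rest. They carried a median of 12, 10, 11 and 6 S phase members, against 2, 3, 2 and 2. Doublet marks were set by rank, on the top 5% of Scrublet scores per library, which marked 4.40% to 4.79% of each library. Of the 211 cells 8 (3.79%) were marked, which is not a measured doublet rate. Whether barcodes with 2 cells take part in the larger depth was not tested.

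**Figure D4:**
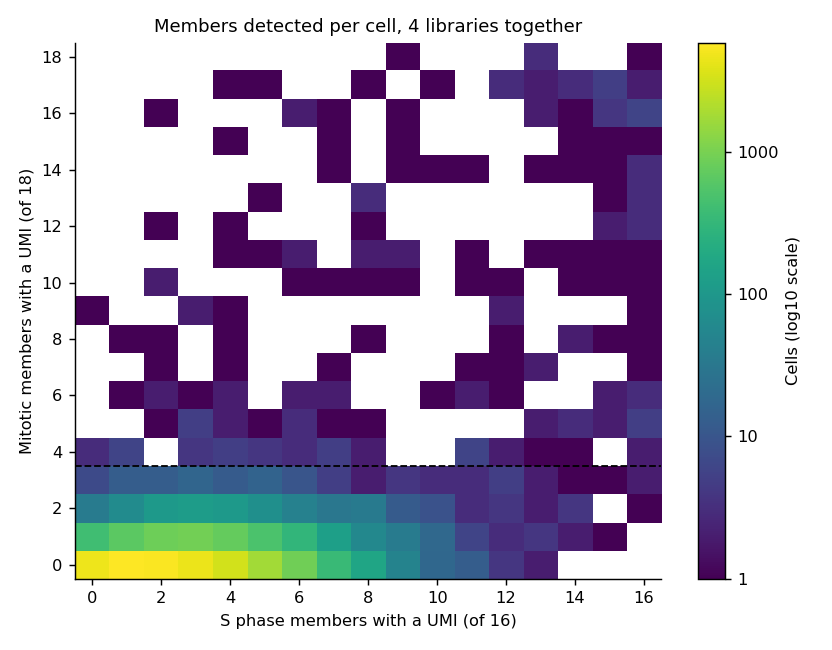
Number of cells (colour, log10 scale) by the number of S phase members (horizontal, of 16) and mitotic members (vertical, of 18) with a UMI; the dashed line marks 4 mitotic members. Most cells lie in the lower left (20757 with at most 3 S phase and 0 mitotic members), and a sparse band runs to the upper right, with 42 cells at 13 to 16 and 13 to 18.

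S phase members and mitotic members met in the same cells only in part. Of 221 cells with a UMI of at least 10 S phase members, 109 were among the 211 and 112 were not. Of the 211, 49 had fewer than 5 S phase members. Across the plane of both counts, 24 cells had 4 to 7 mitotic members and at most 3 S phase members.

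The S phase members were not alike in where their UMIs lay. Of Clspn UMIs 71.6% were in the 211 cells, of Rrm2, the regulated subunit of ribonucleotide reductase, 58.3%, and of Uhrf1, which reads hemimethylated DNA at the fork, 44.8%. Of Pcna UMIs 4.34% and of Cdt1 UMIs 3.47% were there, not far above the 2.07% that these cells held of all UMIs. The 6 MCM genes lay between, from 6.43% (Mcm4) to 13.1% (Mcm5), followed by Gins2 (22.9%), Tyms (25.0%) and Cdc6 (27.5%). For a mitotic member the cells were counted by the other 17, so that the gene did not choose its own cells. Ccna2 stood highest at 90.0%, Bub1 and Tpx2 were at 79.8%, Mki67 at 73.3%, Top2a at 64.2% and Cdk1 at 62.1%. At the other end were Plk1 (35.7%), Cdc20 (31.7%) and Aurka (11.8%), so Aurka lay within the range of the MCM genes. In WT replicate 2 every member except Ccnb1 had its lowest share, 14.3% for Rrm2 against 56.0% to 72.6% elsewhere and 39.2% for Mki67 against 67.1% to 82.9%.

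**Figure D5:**
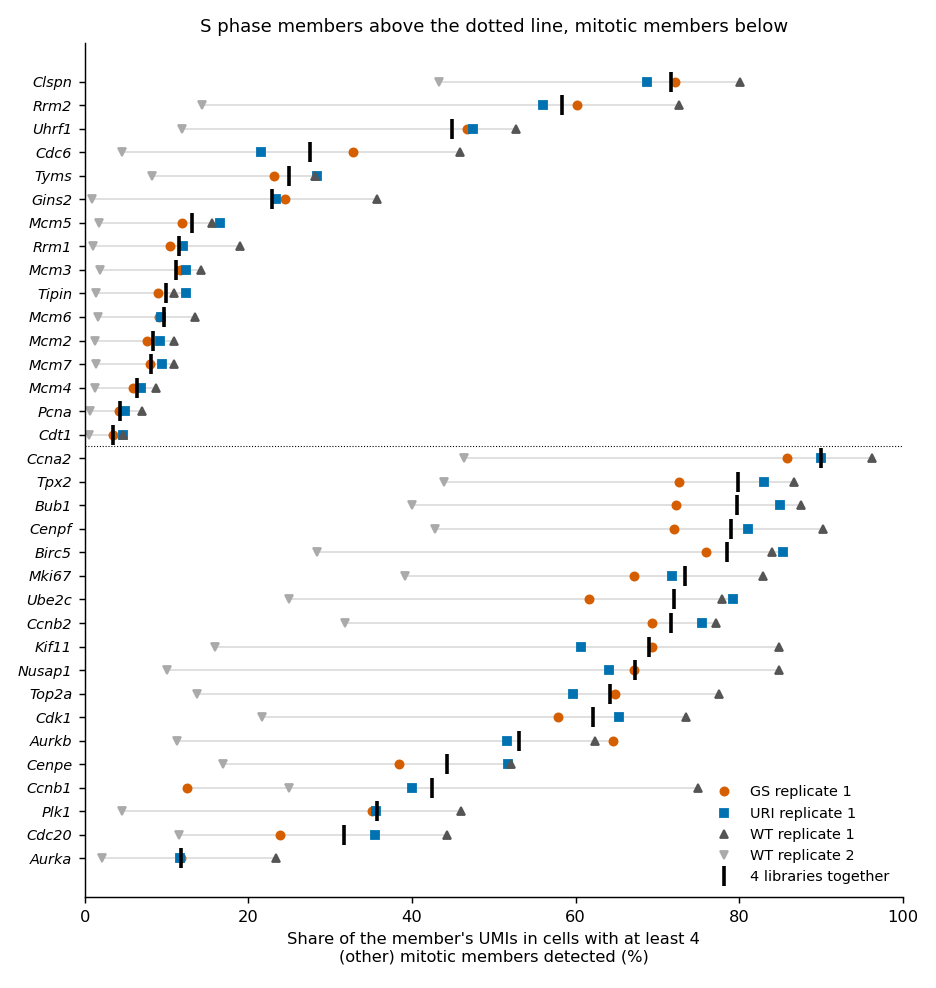
Share of each member's UMIs (%) that lay in cells with a UMI of at least 4 mitotic members (for a mitotic member, at least 4 others); points are libraries and the black tick is all 4 together, S phase members above the dotted line and mitotic members below. S phase members run from 3.47% (Cdt1) to 71.6% (Clspn), and mitotic members from 11.8% (Aurka) to 90.0% (Ccna2).

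The S phase members were tested between the 211 cells and the rest, summed per library, with edgeR's quasi-likelihood test and library as a block. The mitotic members chose the cells and were not tested. All 16 S phase members were higher, where 16.4% of 11359 genes were higher and 17.7% lower, with a median log2 difference of 2.58 against -0.07 for all genes. Rrm2 was at 709, 433, 573 and 325 CPM in those cells and at 8.32, 8.61, 6.33 and 9.34 CPM in the rest (6.05, SE 0.224, adjusted p = 7e-09). Clspn was at 189, 106, 137 and 148 CPM against 1.30, 1.22, 0.997 and 0.934 CPM (6.99, SE 0.205, adjusted p = 1.24e-09). Both genes were apart in every library, with no overlap. Cdt1 had the smallest difference, at 221, 250, 170 and 186 CPM against 111, 129, 100 and 181 CPM (0.83, SE 0.138, adjusted p = 0.000837), and the WT replicate 2 values were close. Pcna was at 850, 678, 741 and 529 CPM against 342, 331, 291 and 434 CPM (1.08, SE 0.166, adjusted p = 0.000464). The subunits Mcm2 (2.07) and Mcm3 (2.58) lay between. All 16 were also higher with at least 6 mitotic members, with at least 2 mitotic members in cells thinned to 1000 UMIs, and without each library in turn, and 15 within the CD4 T gate alone.

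The other lists were read in the same comparison. All 40 other replication genes and all 48 tested other mitotic genes were higher, and of 32 G1 regulators 17 were higher and 5 lower. Of all genes 16.4% were higher and 17.7% lower. Mitotic members chose the cells, and the filter could keep genes that passed it in these cells alone. Higher levels of genes expressed along with those members follow from that choice, so these counts are no support. Among the G1 regulators E2f7 (4.76), E2f8 (4.65) and E2f1 (3.87), which encode E2F factors, were higher, and Btg2 (-1.19), Btg1 (-1.18) and Cdkn1b, the CDK inhibitor p27 (-0.57), were lower.

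The 211 cells came from several gates. CD4 T cells held 60 of them (1.37% of the gate: 18, 19, 21 and 2 cells), CD8 T cells 27 (0.673%), CD4-CD8- T cells 18 (0.648%), NK/ILC cells 7 (0.253%), B cells 6 (0.0931%) and Csf3r myeloid cells 6 (0.163%). The Camp-high myeloid gate held 12, the highest share of a gate (8.39% of 143). The Csf1r gate had 0 of 136, and with 16 to 59 cells a library this allows shares of up to 5.08% to 18.8%. Ungated cells with at least 1 marker UMI held 71 (0.974% of 7291) and cells with no marker 4 (0.322% of 1243). Of these 75 ungated cells 70 had a UMI of Cd3e and 48 had Cd3e and Cd79a together, and the most common combination was Cd3e, Cd4 and Cd79a in 25. In the 211 cells the T cell list was at 3953 to 6337 CPM and a plasma cell list at 2007 to 6810 CPM over libraries, the B cell list at 186 to 396 CPM, and 6 of 6 erythroid genes were at 0. The neutrophil list was at 525, 15217, 8536 and 436 CPM and the early neutrophil list at 4.56, 13521, 3589 and 315 CPM. In their own gates the neutrophil list was at 59755 to 89861 CPM (Csf3r myeloid) and the T cell list at 4345 to 8449 CPM, so the lists do not order numbers of cells. Of the 71 cells of URI replicate 1, 10 were Camp-high and 4 Csf3r myeloid. Of the 74 of WT replicate 1 these were 2 and 1. The part of neutrophils, plasma cells and doublets in these cells was not tested.

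For shares of cells the libraries were compared after thinning to 1000 UMIs, leaving out shallower cells, which kept 7108, 8312, 7697 and 6722 cells. Cells with at least 4 S phase members then made up 1.88%, 1.45%, 1.90% and 1.11% of CD8 T cells, 1.35%, 1.07%, 1.24% and 0.810% of CD4 T cells, and 0%, 0.723%, 0% and 0% of Csf3r myeloid cells. The counts of 0, in 667, 679 and 1185 cells, allow shares of up to 0.450%, 0.442% and 0.253%. Without thinning the CD8 T shares were 48.5%, 61.2%, 41.1% and 36.7%, so these shares move with depth. CD8 T cells were above the mean of the other gates in 4 of 4 libraries, by 0.777 percentage points (exact sign-flip permutation p = 0.13, the smallest possible with 4 libraries). CD4-CD8- T cells were also above it in 4 of 4, by 0.556 percentage points (exact permutation p = 0.13). For at least 4 mitotic members CD4 T cells were above in 4 of 4, by 0.301 percentage points (exact permutation p = 0.13), and B cells were above in 0 of 4 (-0.228, exact permutation p = 0.13). The CD4 T shares rest on 4, 5, 11 and 1 cells. CD4-CD8- T cells had a larger mean difference, 0.321 percentage points, and were above in 3 of 4 (exact permutation p = 0.25). For single genes, Pcna had a UMI in 76.7%, 77.8%, 67.7% and 70.4% of CD4 T cells and in 27.3%, 41.9%, 28.6% and 38.7% of Csf3r myeloid cells, and after thinning in 31.5%, 28.8%, 27.5% and 35.5% against 10.2%, 16%, 10% and 21%. Mki67 had a UMI in 5.98%, 5.69%, 5.35% and 1.76% of CD4 T cells at median depths of 5086, 5878, 4334 and 3274 UMIs. In Csf3r myeloid cells, where mature neutrophils should lack it, the Mki67 shares were 0.651%, 2.17%, 0.544% and 0.863% at 3821, 4126.5, 3710 and 2630 UMIs. After thinning the Mki67 shares were 1.99%, 1.71%, 2.87% and 0.486% in CD4 T cells and 0.300%, 0.723%, 0.295% and 0% in Csf3r myeloid cells.

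The Camp-high myeloid cells were few: 7, 107, 12 and 17 cells. Their early neutrophil list was at 55964 to 113973 CPM, against 2267 to 3817 CPM in the Csf3r gate, carried by the granule genes Ngp, Ltf, Lcn2 and Chil3. The earliest granule genes were not high, with Mpo at 0 CPM against 65.8 CPM and Elane at 1.83 CPM against 14.5 CPM in the Csf3r gate. Genes of mature neutrophils were present, with a UMI of Cxcr2 in 88.1% of these cells and of Mmp9 in 94.4%, so the gate is called by Camp alone. They are described without a test. Their mitotic set held 0, 481, 43 and 2 UMIs, or 0, 365, 270 and 20.0 CPM, and their S phase set was at 63.1, 334, 50.2 and 279 CPM. In URI replicate 1, 10 of 107 had at least 4 mitotic members (9.35%, 95% exact interval 4.57 to 16.5), and in WT replicate 1, 2 of 12 (16.7%, 2.09 to 48.4). Mki67 was at 0, 79.6, 69.0 and 20.0 CPM and Ccnb2 at 0, 22.0, 107 and 0 CPM, while Top2a (0, 42.5, 0 and 0 CPM) and Rrm2 (0, 55.3, 0 and 0 CPM) had UMIs in URI replicate 1 only. With 7 to 17 cells in the other libraries, a difference between libraries was not detectable at this depth.

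The last comparisons were between the deletion libraries and WT. The spread came from the 2 WT libraries, which leave 1 residual degree of freedom, and each single deletion library was assumed to vary like WT. In all cells 0 of 34 members were called by edgeR's quasi-likelihood test in GS against WT, where 0% of 12786 genes were called, 0 in URI against WT (0.0391%) and 0 in URI against GS (0.0469%). DESeq2 also called 0, and 0 members had an unadjusted p under 0.05 in all cells in any of the 3 contrasts. None was called within any of the 6 gates in any contrast by either tool. Of all genes, 0.00954% were called in B cells for GS against WT. In CD4-CD8- T cells 0.0584% were called for URI against WT and 0.0195% for URI against GS, in Csf3r myeloid cells 0.0101% and 0.0201%, and 0% in the other gates and contrasts. GS against WT and URI against WT share their WT libraries, and URI against GS shares a library with each.

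In all cells Cdt1 was at 113, 132, 102 and 181 CPM, with GS against WT at -0.37 (SE 0.463, adjusted p = 1), and the WT libraries enclosed both deletion libraries. Mcm2 was at 75.8, 68.2, 72.5 and 45.1 CPM (GS against WT 0.34) and Tyms at 9.15, 8.72, 8.47 and 4.83 CPM (0.43), with WT replicate 2 lowest in both. For URI against WT the smallest unadjusted p-values belonged to Ccnb1 (0.212, 0.101, 0.332 and 0.354 CPM, -1.76, SE 1.39), the kinetochore gene Cenpf (2.65, 3.18, 2.82 and 0.930 CPM, 0.73) and Aurkb (0.46). For URI against GS they were Ccnb1 (-1.04), Aurkb (0.58) and Ube2c (0.53). None was past the threshold, and the values rest on which WT library is used. Without WT replicate 2 the GS difference of Cdt1 was 0.14 and without WT replicate 1 it was -0.76. In the same order Mcm2 was at 0.06 and 0.68 and Tyms at 0.10 and 0.84 for GS against WT. For URI against WT Cenpf was at 0.17 and 1.66 and Aurkb at 0.18 and 0.81.

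The filter on low counts kept a gene that reached its limit in 1 library. A member high in GS or URI replicate 1 alone could therefore be tested, so the counts of higher members below are no support for a difference. Within gates some members differed at an unadjusted p under 0.05 only. In CD4-CD8- T cells 6 of 33 did in URI against WT (0.74% of all genes did), all higher: Mki67 (1.59), Top2a (1.51), Rrm2 (1.48), Ccna2 (1.89), Cenpf (2.75) and Nusap1 (2.03). In Csf3r myeloid cells 7 of 25 did (1.25% of all genes), all higher: Ccna2 (5.42), Birc5 (4.39), Tpx2 (3.50), Uhrf1 (2.52), Mki67 (2.42), Mcm3 (1.43) and Mcm7 (1.08). Ccna2 there was at 0.318, 8.52, 0 and 0.254 CPM, and without the filter on low counts it was the 1 member called (5.41, adjusted p = 0.0149 by edgeR). A list of progenitor genes was highest in URI replicate 1 in the Csf3r gate (11.8, 78.8, 41.6 and 28.4 CPM) and the neutrophil list lowest there (89861, 59755, 88491 and 61171 CPM), and their part in these differences was not tested. In GS against WT the 1 such member was Top2a, at 1.28 (SE 0.548) in CD8 T cells (0.251% of all genes) and at 1.98 (SE 0.662) in B cells (0.267%). In URI against GS 9 of 33 did in CD4-CD8- T cells (0.565%) and 13 of 25 in Csf3r myeloid cells (1.73%), all higher, and 1 in CD8 T cells (0.223%), Clspn, at -3.70. In NK/ILC cells 1 of 27 did in URI against WT (0.151%) and 2 in URI against GS (0.151%). No member did in CD4-CD8- T cells for GS against WT (0.477%) or in B cells for URI against WT (0.296%). In CD4 T cells 0 of 33 did in GS against WT (0.326%), URI against WT (0.391%) or URI against GS (0.233%). The median mitotic difference in CD8 T cells was 1.24 in GS against WT, with 17 of 17 members positive. None of these held after adjustment over all genes, and members share cells, so the counts are not independent.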

How the data were processed

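Fixed cells were profiled by hybridised probe pairs (10x Fixed RNA Profiling), so only genes with a probe were measured. The deposited matrices hold raw UMI counts per gene and barcode, made with Cell Ranger 8.0.0 against mm10, per the submitters' processing notes. Of listed rows, 59 deprecated ones (0.0649% of UMIs) were left out. Members, gates and gene lists were chosen with earlier results of these data known. All 34 members may be named. In the gate comparison the 12 of each set with the highest summed CPM led, in group contrasts the members called, or else the 3 with the smallest unadjusted p, and of other lists up to 4 genes with the smallest adjusted p in CD4 T cells. The comparison of the 211 cells was added after the data were seen, and the G1 genes named in it were chosen after their values were seen.

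Barcodes with at least 500 UMIs were kept (93.9% to 95.6% of UMIs). Counts were summed per library and gate and tested with edgeR 4.0.16 in R 4.3.3 (TMM scaling, filterByExpr, quasi-likelihood test, Benjamini-Hochberg adjustment at 0.05). DESeq2 1.42.0 was an alternative. Shares of cells used cells thinned to 1000 UMIs and exact permutation tests over libraries. Doublets were not removed beyond the marker limits of the gates. Scrublet in scanpy 1.11.5 marked 0 cells in WT replicate 1 at its automatic threshold, so an added alternative removed the 5% of cells with the highest score per library. The edgeR fit was run on simulated counts only for CD4 T against the other gates and for GS against WT in CD4 T cells. The other contrasts and the DESeq2 fits were not simulated. Thinning and permutation ran in python 3.11.15 with numpy 2.4.6 and scipy 1.17.1, and tables and figures in pandas 2.3.3 and matplotlib 3.10.9. Alternatives were no scaling, no filter, 1000 UMIs per cell, gates at 2 UMIs, other thinning and member numbers, and each library left out.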

Additional observations from a re-analysis of the deposited data

Results flagged for a closer look

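In 2 measures GS replicate 1 lay on the other side of zero from both WT libraries, and 1 more value comes from cells outside the gates; none of these differences was tested. The log2 ratio of S phase to mitotic UMIs in CD8 T cells minus the other gates was -0.871 in GS replicate 1, and 0.356 and 0.28 in WT replicates 1 and 2. The same ratio in Csf3r myeloid cells minus the other gates was 0.0767 in GS replicate 1, and -0.14 and -0.441 in the WT replicates. Among cells with no gate marker, which enter no gate comparison, 0.529% had a UMI of at least 4 mitotic members in GS replicate 1, against 0% and 0.38% in the WT libraries (replicates 1 and 2). That GS value rests on 1 cell of 189.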

How the results depend on the processing

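Outside the settings that left out 1 library, 253 values for the main comparisons held, 42 moved and 8 reversed. Without scaling factors the counts of members higher became 2 mitotic in CD8 T, 12 mitotic in CD4-CD8- T and 5 S phase in B cells. Those lower became 0 S phase in CD4 T and CD8 T, 0 mitotic in CD4-CD8- T and 10 mitotic in Csf3r myeloid cells. DESeq2 gave 9 mitotic higher in CD4 T, 3 in CD4-CD8- T, and S phase 4 higher in NK/ILC and 2 in Csf3r myeloid cells. With no filter on low counts, 0 S phase members were lower in CD4 T and CD8 T, 2 mitotic were higher in CD8 T, and 1 member was called in URI against WT. With at least 1000 UMIs per cell 0 S phase members were lower in CD4 T and CD8 T, and with doublets removed 0 in CD8 T. Gates at 2 UMIs gave 0 S phase lower in CD4 T, 2 mitotic higher and 1 lower in CD8 T, and 5 S phase higher in B cells.

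Differences in shares of cells between gates changed sign in 3 comparisons. The S phase difference of NK/ILC was -0.292 percentage points at 1000 UMIs, 0.72 at 2000, 0.914 unthinned and 0.183 with 3 members, and that of B cells -0.352 and 0.129 with 3 members. The mitotic difference of CD8 T was -0.0071 at 1000 UMIs, 0.0646 at 2000, 0.105 unthinned, 0.0059 with 3 members and 0.0004 with 6. The share of all cells with at least 3 mitotic members was 1.01%, 1.23%, 1.18% and 0.483% (GS, URI, WT replicates 1 and 2), and with 6 members 0.382%, 0.572%, 0.601% and 0.107%. With 4 members it was 0.127%, 0.121%, 0.106% and 0.0268% at 500 UMIs, 0.225%, 0.301%, 0.416% and 0.0595% at 1000, and 0.402%, 0.508% and 0.613% (GS, URI, WT replicate 1) at 2000. On the gene's strand alone CCAAT was in 6 S phase windows. The cause of these changes was not tested.

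With each library left out, S phase members higher ranged over 6 to 12 in CD4 T, 9 to 15 in CD8 T, 5 to 8 in CD4-CD8- T, 2 to 6 in NK/ILC, 2 to 4 in B and 0 to 1 in Csf3r myeloid cells. S phase lower ranged over 0 to 0 in CD4 T, 0 to 1 in CD8 T, 0 to 2 in NK/ILC, 3 to 5 in B and 12 to 12 in Csf3r myeloid cells. Mitotic members higher ranged over 5 to 14 in CD4 T, 0 to 5 in CD8 T, 1 to 10 in CD4-CD8- T, 0 to 0 in NK/ILC, 0 to 1 in B and 1 to 2 in Csf3r myeloid cells. Mitotic lower ranged over 0 to 3 in CD8 T, 0 to 1 in CD4-CD8- T, 2 to 3 in NK/ILC, 0 to 5 in B and 3 to 10 in Csf3r myeloid cells. The mitotic share difference of CD8 T ranged from -0.1181 to 0.0406, its S phase to mitotic ratio from -0.0782 to 0.5497, and Cdt1 in GS against WT from -0.755 to 0.144. No paired analysis was possible because GS and WT, and URI and WT, share only replicate number 1. Rare mitotic UMIs in the shallow WT replicate 2 limit all mitotic values.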
